A study of Mus musculus with 65 samples.

Results

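The genes described here carry the signal of erythropoietin from the cell surface to its targets: Epor, Jak2, Stat5a, Stat5b, Cish, Socs2, Socs3, Pim1 and Bcl2l1. These 9 of 21938 protein-coding genes were taken by name. Every CTCF and TAL1 peak within the body of a gene or 50 kb on either side was collected from each library, and overlapping peaks of 1 factor were merged into sites. This gave 42 of 13153 TAL1 sites and 61 of 95140 CTCF sites of the genome. The windows of Stat5a and Stat5b overlap on chromosome 11, so the 9 genes form 8 separate loci, which cover 1069270 bases or 0.0392% of chromosomes 1 to 19, X and Y. A site is described under the gene whose start lies nearest, and the windows also hold other genes, such as Stat3 beside Stat5a and Mapkapk3 beside Cish, so that a site near a named gene need not act on it.

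ChIP-seq, which locates a protein on DNA by sequencing the fragments that its antibody pulls down, was carried out for CTCF in 34 and for TAL1 in 19 of the 53 libraries used here. The study varied the sonication of fixed chromatin and measured its average length before the immunoprecipitation. Its authors assessed each library as Fail, Low pass or Pass by inspecting signal tracks at known loci, so this label was itself made from the signal. G1E-ER4+E2 cells are a mouse erythroid line derived from embryonic stem cells that lack GATA1 and carry a GATA1 fusion switched on by estradiol. They were grown with kit ligand and erythropoietin and treated with β-estradiol for 24 hours. In this line 5 TAL1 libraries were Fail, 4 Low pass and 10 Pass, and 7 CTCF libraries were Fail, 2 Low pass and 14 Pass. All of them come from 1 cell line. The other 11 CTCF libraries come from 8 populations sorted from the bone marrow of C57BL/6 males 5 to 8 weeks old: LSK (stem and early progenitor cells), CMP, GMP and MEP (myeloid progenitors), CFUE and ERY (erythroid), and CFUMk and iMk (megakaryocytic), of which the CMP and GMP libraries were Low pass. No TAL1 library of primary cells was analysed here, and peak lists offer no expression markers with which to check the identity of sorted cells. One TAL1 library, at 221 bp, carries an antibody label that names CTCF. It was kept as TAL1 by its title, and 85.7% of its 4486 peaks overlapped TAL1 reference sites of the genome, against 4.44% for CTCF.

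Erythropoietin binds its receptor on erythroid progenitors and brings together the receptor-bound JAK2 kinases, which phosphorylate STAT5A and STAT5B. The STAT5 proteins then enter the nucleus and switch on target genes, among them feedback inhibitors of the pathway (Cish, Socs2, Socs3), the survival kinase Pim1 and Bcl2l1, whose product Bcl-xL keeps maturing erythroblasts alive. TAL1, of the basic helix-loop-helix family, works with GATA1 at erythroid enhancers, and CTCF binds insulators and the anchors of chromatin loops through its zinc fingers.

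For each peak the deposited lists give a position on mm10 (GRCm38), the fold enrichment over background and the −log10 of its p-value, which was never below 5. No read totals come with the lists, so the depth behind each value is unknown. Lists of the line hold 193 to 21986 peaks and those of primary cells 6629 to 36481. Because fold enrichment moves with depth, each value is also given as a percentile, the percent of the library's own peaks with a lower fold enrichment. A reference site is one called in at least 50% of the Pass libraries of its factor in the line. There were 19 TAL1 and 18 CTCF reference sites at the loci, of 4567 and 13938 in the genome. Recall is the percent of these sites that a library called, and a Pass library did not count toward its own reference. Libraries of 1 assessment or 1 range of length served as replicates, so a p-value reflects how much separate libraries vary within them.

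The sequences under the strongest sites are shown for the place of their best match to the motif of the factor, where they hold one. Strongest here means the highest median percentile over the Pass libraries. Each line gives the best match to a 19 bp matrix in capitals with 30 bp on either side, read 5′ to 3′ on the strand of the match. For TAL1, the best matches at Epor, Stat5a and Pim1 passed a p of 0.0001 per position, and each holds the letters GATA of the GATA factor part of the composite motif. At Epor only the match is printed, and it lies 580 bp from the centre of its site. No window passed this threshold at the strongest TAL1 sites of Jak2, Cish and Socs3, so none is printed. By the word of CTG and GATA described with the motif content below, the sites of Jak2 and Cish do hold a match. Those of Stat5a and Socs3 hold no such word. The site of Stat5a is also the strongest for Stat5b.
Epor, TAL1, chr9:21962427-21962445, plus strand: CCTGTGCAGATCCGATAAT
Stat5a, TAL1, chr11:100891697-100891775, plus strand: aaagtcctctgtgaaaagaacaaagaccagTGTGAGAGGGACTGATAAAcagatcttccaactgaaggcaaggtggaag
Pim1, TAL1, chr17:29447527-29447605, minus strand: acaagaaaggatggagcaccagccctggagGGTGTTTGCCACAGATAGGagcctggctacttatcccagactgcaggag

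The strongest CTCF sites of 8 of the 9 genes held a match above the same threshold. The Stat5a match lies in an intron of Stat3, inside the windows of Stat5a and Stat5b. The Socs2 promoter is the exception. Its best window is shown for contrast, and the score fell below the threshold.
Epor, CTCF, chr9:21978196-21978274, plus strand: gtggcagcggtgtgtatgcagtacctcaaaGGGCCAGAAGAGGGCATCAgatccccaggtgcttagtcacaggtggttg
Jak2, CTCF, chr19:29253941-29254019, minus strand: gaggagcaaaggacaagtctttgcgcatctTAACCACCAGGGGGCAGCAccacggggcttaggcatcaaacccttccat
Stat5a, CTCF, chr11:100893590-100893668, plus strand: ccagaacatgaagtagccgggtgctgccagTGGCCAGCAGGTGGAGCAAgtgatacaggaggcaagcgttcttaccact
Cish, CTCF, chr9:107291067-107291145, minus strand: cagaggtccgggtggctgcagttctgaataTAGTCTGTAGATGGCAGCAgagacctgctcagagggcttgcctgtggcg
Socs3, CTCF, chr11:117970041-117970119, plus strand: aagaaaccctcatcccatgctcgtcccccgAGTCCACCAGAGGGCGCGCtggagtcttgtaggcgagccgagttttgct
Pim1, CTCF, chr17:29514579-29514657, minus strand: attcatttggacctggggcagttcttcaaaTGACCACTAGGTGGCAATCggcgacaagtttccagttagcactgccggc
Bcl2l1, CTCF, chr2:152766638-152766716, minus strand: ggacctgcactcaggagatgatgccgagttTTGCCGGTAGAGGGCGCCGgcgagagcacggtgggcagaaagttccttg
Socs2, CTCF, below the threshold, chr10:95418005-95418083, plus strand: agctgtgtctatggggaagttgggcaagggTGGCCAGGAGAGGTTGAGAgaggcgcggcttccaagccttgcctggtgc

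TAL1 sites surrounded 8 of the 9 genes, and CTCF sites all 9. A TAL1 reference site lay within the gene or 50 kb for 8 of the 9 genes, all but Socs2, where 31.8% of protein-coding genes had one. Socs2 encodes an inhibitor that binds the phosphorylated receptor, and no TAL1 peak of any library fell in its window. A CTCF reference site was present at all 9 genes, against 68.2% of protein-coding genes. TAL1 reference sites numbered 6 at Bcl2l1, 5 at Pim1, 2 each at Jak2, Stat5a and Cish, and 1 each at Epor and Socs3. CTCF reference sites numbered 4 at Cish, 3 each at Pim1 and Bcl2l1, 2 each at Jak2 and Socs3, and 1 each at Epor, Socs2, Stat5a and Stat5b, and the site of Stat5a also lies in the window of Stat5b.

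**Figure D1:**
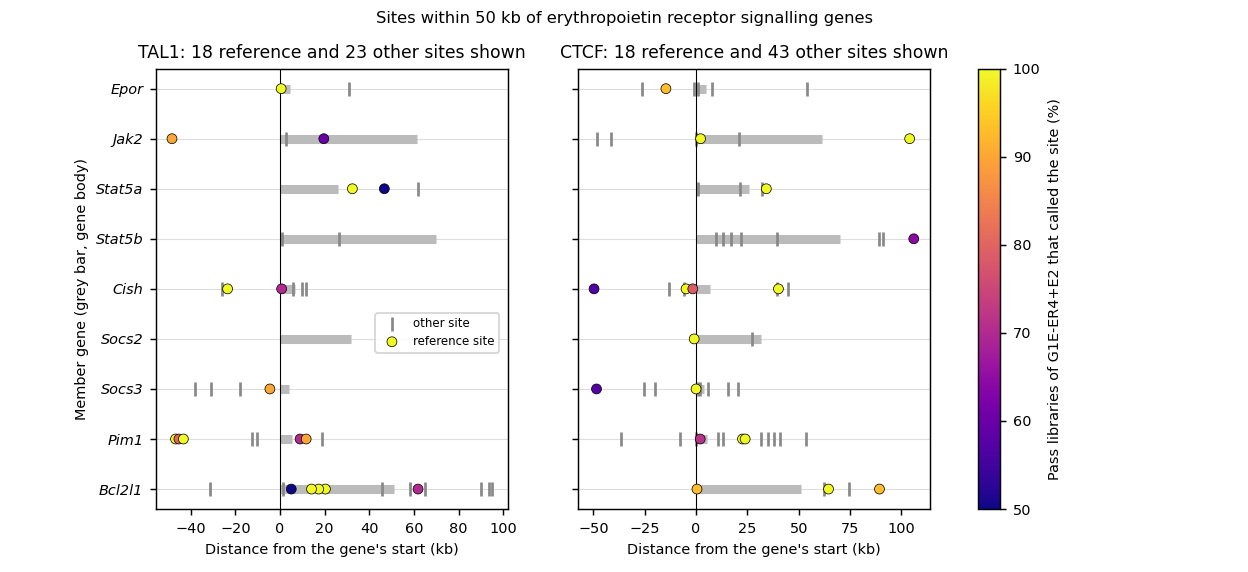
TAL1 (left) and CTCF (right) sites by distance from the start of the nearest named gene in kb (horizontal axis) for each of the 9 genes (vertical axis, grey bars for gene bodies). Circles are reference sites coloured by the percent of Pass libraries of G1E-ER4+E2 that called them, grey ticks are the other sites, and Socs2 has no TAL1 symbol. One TAL1 reference site of Bcl2l1 is not drawn.

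By position, no reference site of 1 factor overlapped one of the other. Of the 19 TAL1 reference sites 12 had their centre in an intron, 5 between genes, 1 in a UTR and 1 in a coding exon, and 8 lay in the body of a named gene. A promoter, taken as 1000 bp around a transcript start, held 2 of the 19 (10.5%), those of Epor and Cish, against 18.6% of TAL1 reference sites of the genome. Of the 18 CTCF reference sites 11 lay in introns and 7 between genes. Promoters held 6 of the 18 (33.3%), against 16.1% of CTCF reference sites, and 4 of the 6 were promoters of Socs2, Socs3, Pim1 and Bcl2l1. That of Pim1 is at a transcript start inside the gene and not at the gene start. The overlap was 0 of 19 TAL1 and 0 of 18 CTCF reference sites, where 5.26% of TAL1 and 1.75% of CTCF reference sites of the genome overlapped one of the other factor. Sites called in too few libraries for a reference site were then counted too. With these, 4 TAL1 reference sites (at Epor, Jak2, Stat5a and Bcl2l1) overlapped a CTCF site. Likewise 4 CTCF reference sites (at Jak2 and Bcl2l1) overlapped a TAL1 site. No genome share of this wider overlap was computed, and the shares above are of reference sites alone. The closest reference sites of TAL1 and CTCF were the Stat5a sites shown above. They lie at 32.4 kb (TAL1) and 34.2 kb (CTCF) from the Stat5a start and are 694 bp apart. That was 1 of 19 TAL1 reference sites within 1000 bp of a CTCF reference site, against 9.42% in the genome, and 1 of 18 CTCF reference sites within 1000 bp of a TAL1 one, against 3.14%. These shares rest on few sites, and no test of them was run.

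TAL1 lists held 204 to 606 peaks in Fail, 1212 to 2751 in Low pass and 2670 to 9763 in Pass libraries. Every TAL1 site at the loci was called in at least 1 Pass library of the line, for which no genome share was computed. Of the 42, 9 were called in all 10 Pass libraries, 12 in more than 1 library but too few for a reference site, and 11 (26.2%) in a single library, against 33.7% of TAL1 sites of the genome in a single library. The 9 called in every Pass library made up 47.4% of the reference sites, against 41.1% in the genome. Of the 61 CTCF sites, all 14 Pass libraries called 10 (55.6% of reference sites, against 40.7%), and 19 (31.1%) in a single library, against 56.1%. No Pass library of the line called 35 of the 61, and all of these came from primary cells. The genome share was computed only for sites in at least 2 of the primary and Pass libraries. Of such sites 17 of 42 (40.5%) had no call in a Pass library, against 32.6% in the genome.

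The first question was how much of this map survives in libraries of lower quality. Reference sites were picked by their calls in Pass libraries and the assessment was made from the signal, so a lower recall in the other libraries is built into the measure. Recall by assessment is therefore given as a description without p-values, although its tests were run and count among the 8 adjusted together. TAL1 recall at the loci averaged 22.8% ± 25.9 in the 9 Low pass or Fail libraries and 85.1% ± 15.4 in the 10 Pass libraries (SD), a difference of -62.3 points. Low pass libraries reached 36.8%, 36.8%, 42.1% and 73.7%, Fail libraries 0% to 10.5%, and Pass libraries 57.9% to 100%. The Low pass and Pass ranges thus overlapped, through the Low pass library at 260 bp. CTCF recall averaged 13.6% ± 24.2 in 9 Low pass or Fail libraries and 89.3% ± 12.4 in 14 Pass libraries, a difference of -75.7 points. The 2 Low pass CTCF libraries reached 50% and 61.1%, 6 of the 7 Fail libraries 0%, and the Fail library at 194 bp 11.1%, all below the lowest Pass library at 66.7%.

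Recall at the loci ran beside recall over the whole genome. TAL1 Low pass libraries averaged 47.4% ± 17.7 at the loci and 36.6% ± 14 in the genome (SD, n = 4), Fail libraries 3.15% ± 4.70 and 2.58% ± 2.59 (n = 5), and Pass libraries 85.1% ± 15.4 and 81.9% ± 15.2 (n = 10). For CTCF, the Low pass libraries had 50% and 61.1% at the loci and 45.5% and 47.2% in the genome, and Pass libraries averaged 89.3% ± 12.4 and 85.6% ± 9.35 (n = 14). Some Fail libraries had long lists that lay elsewhere. The 2 CTCF libraries with no detectable chromatin length had 17343 and 7382 peaks, of which 0 lay at the loci, and their genome recall was 0.258% and 0.0717%. None of the 7 Fail CTCF libraries belongs to the sonication series made for the study. Of these 4 are retrospective libraries, made under a variety of conditions, and the other 3, with no detectable length or at 329 bp, come from a pilot with few cells. Within the sonication series, CTCF recall was 61.1% in the 1 Low pass library and averaged 86.4% in 10 Pass libraries. One of the 2 Pass libraries at 248 bp is also of the pilot. No label states which, but library 789 is numbered directly after the pilot library 788. Library 694 falls between libraries 693 and 695 of the series. With both left out, an alternative chosen after seeing the data, the average was 88.2% in 8 Pass libraries. The difference in TAL1 recall was -56.0 points within the series, from 4 Low pass or Fail and 6 Pass libraries. Among the retrospective libraries alone, also chosen after seeing the data, recall was 16.8% in 5 Low pass or Fail and 81.6% in 4 Pass libraries for TAL1, and 11.6% in 5 and 84.7% in 3 libraries for CTCF.

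Site by site, Fisher's exact test on libraries with and without a call, adjusted over all sites of a factor called in at least 2 libraries, gave 11 of 31 tested TAL1 sites at the loci (35.5%) as called less often in Low pass or Fail libraries, against 37.4% of TAL1 sites in the genome. For CTCF 17 of 22 tested sites (77.3%) were called less often, against 51.2%. None was called more often at the loci, by the adjusted or by an unadjusted p under 0.05 (0 sites), against 0.0115% of TAL1 and 0.188% of CTCF sites in the genome. Of the 22 tested CTCF sites 18 are reference sites, against 13938 of 26049 in the genome. Reference sites were picked by their calls in Pass libraries, so the shares of 77.3% and 51.2% come from unlike mixes of sites. The sites named below were picked by their calls in Pass libraries, so their own p-values describe the calls and are no independent evidence. A difference that did not pass is no evidence of equal calls. The TAL1 count fell to 7 without the library whose antibody label names CTCF, and likewise without each of the Pass libraries at 240, 226, 256 and 202 bp.

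**Figure D2:**
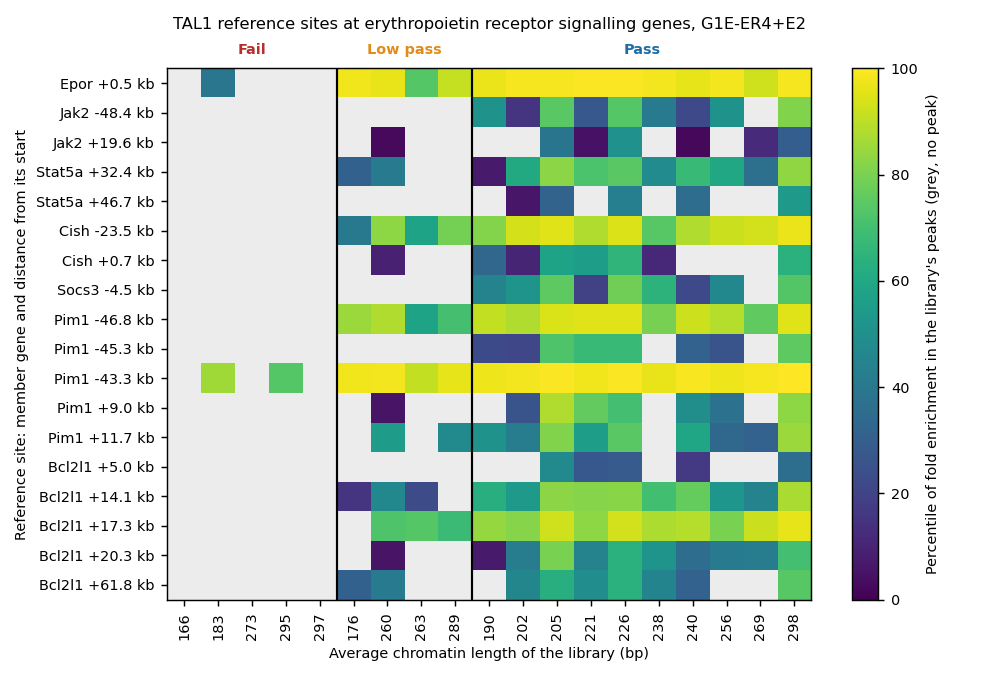
TAL1 reference sites (rows, 18 of the 19) in the 19 TAL1 libraries of G1E-ER4+E2 cells (columns, by assessment and average chromatin length in bp). Colour gives the percentile of fold enrichment among the library's own peaks and grey no peak. The Epor site at 0.5 kb and the Pim1 site at -43.3 kb are coloured in all Low pass and Pass libraries, and Fail libraries are nearly all grey.

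The erythropoietin receptor gene Epor (chr9:21958897-21963506, minus strand) had a single TAL1 reference site, at its own promoter. It lies at chr9:21961989-21964042 with its centre in the first part of the gene, 0.49 kb from the start, and covers the match printed above. Low pass libraries at 176, 260, 263 and 289 bp gave fold enrichments of 30.4, 31.9, 14.3 and 17.5. The Fail library at 183 bp gave 28.8, and the other 4 Fail libraries had no peak. The 10 Pass libraries gave 26.5 to 124 with a median of 50.4. In its own list the site stood at percentiles of 73.8 to 98.0 in Low pass libraries, at 39.2 in the Fail library, and at 92.6 to 99.6 (median 98.4) in Pass libraries. The median of 98.4 was shared with the Pim1 site described below and was the highest of the 19. Calls came from 5 of 9 Low pass or Fail and from 10 of 10 Pass libraries, a difference that did not pass the test (Fisher's exact adjusted p = 0.0663).

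The CTCF reference site of Epor lay away from the promoter. This only reference site lies at chr9:21977677-21978738, 14.7 kb upstream of Epor in an intron of the neighbouring Rgl3. It was called in 0 of 2 Low pass, 0 of 7 Fail and 13 of 14 Pass libraries (Fisher's exact adjusted p = 1.70e-04). In the 13 Pass libraries its fold enrichment ran between 11.1 and 24.5 with a median of 13, and its median percentile was 65.3. No Low pass library of the line had a CTCF peak anywhere in the Epor window, while each of the other 8 genes had at least 1 in both Low pass libraries. The Pass library without a call was the one at 302 bp. In primary cells 2 CTCF sites fell at the Epor promoter, both absent from the line. The one at chr9:21962267-21963006 overlaps the TAL1 reference site and was called in GMP with 15.1 and in CFUMk with 10.7, and the one at chr9:21964466-21964806 was called in GMP alone with 18.3. Their percentiles were low, at 9.02 and 18.5 for the first and 28.5 for the second. The first holds no CTCF matrix match, and repeats cover 84.5% of the second. GMP and CFUMk have the longest peak lists, at 34416 and 36481.

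Jak2 (chr19:29251828-29313080, plus strand), the kinase bound to the receptor, had TAL1 sites that were weaker and absent from most lower-quality libraries. The site 48.4 kb upstream, at chr19:29203064-29203883, had no call in any of 9 Low pass or Fail libraries, against 9 of 10 Pass libraries (Fisher's exact adjusted p = 0.00196). Its fold enrichment was 7.69 to 23.6 in Pass libraries with a median of 11.8, at a median percentile of 51.2. A TAL1 site over a coding exon 19.6 kb into the gene, chr19:29270938-29271847, was called in 1 of 4 Low pass, 0 of 5 Fail and 6 of 10 Pass libraries (adjusted p = 0.114). The CTCF site 2.18 kb into the Jak2 gene, chr19:29253460-29254556, holds the match printed above. It had fold enrichments of 14.2 and 8.38 in the 2 Low pass libraries, no peak in the Fail libraries, and 11.6 to 42.7 with a median of 15.4 in all 14 Pass libraries (adjusted p = 5.78e-04). A CTCF site 104 kb from the start, in an intron of Plgrkt, was called in the same numbers of libraries.

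The genes of the STAT5 transcription factors lie next to each other on chromosome 11, Stat5b on the minus strand (100780731 to 100850724) and Stat5a on the plus strand (100859351 to 100885169). Both reference TAL1 sites there lay past the end of Stat5a, in introns of Stat3. The nearer one, chr11:100891276-100892250, is 32.4 kb from the Stat5a start. It gave fold enrichments of 8.81 and 9.26 in the Low pass libraries at 176 and 260 bp, no peak in the other 2 Low pass and in 5 Fail libraries, and 6.91 to 30.8 (median 14.9) in the 10 Pass libraries. Its percentile ranged between 7.1 and 83.3 in Pass libraries with a median of 64.3, and the call was less frequent in Low pass or Fail libraries (Fisher's exact adjusted p = 0.00564). The farther one, 46.7 kb from the start at chr11:100905623-100906577, was called in 0 of 9 and in 5 of 10 libraries (adjusted p = 0.0663). At the Stat5b promoter TAL1 was called in 3 Pass libraries only, too few for a reference site.

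The CTCF site past the end of Stat5a, inside Stat3, was among the most frequently called of all. At chr11:100892945-100894185 it had a call in 2 of 2 Low pass, 1 of 7 Fail and 14 of 14 Pass libraries (Fisher's exact adjusted p = 0.00241), with fold enrichments of 13.3 and 16.8 in the Low pass libraries, 13 in the Fail library at 194 bp, and 17.0 to 64.5 (median 24.0) in Pass libraries. Its median percentile of 97.7 was the highest of the 18 CTCF reference sites. The reference site on the Stat5b side, chr11:100744704-100745724 in an intron of Kcnh4, 106 kb from the Stat5b start, was called in 1 Low pass, 0 Fail and 9 Pass libraries (adjusted p = 0.0552).

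Among the feedback inhibitors, Cish (chr9:107296026-107302784, plus strand) encodes a SOCS box protein induced by STAT5. TAL1 was called more strongly 23.5 kb upstream of Cish than at its promoter. The upstream site, chr9:107271889-107273248 in an intron of Mapkapk3, gave fold enrichments of 18.5, 13, 11.6 and 9.62 in the 4 Low pass libraries, no peak in the 5 Fail libraries, and 15.2 to 61.0 with a median of 32.1 in the 10 Pass libraries (Fisher's exact adjusted p = 0.0290). This call was lost in 16 of 24 recomputations, among them each that left out 1 Pass or 1 Fail library. Its percentiles in Pass libraries were 73.9 to 96.9, with a median of 92.6. The promoter site, chr9:107296249-107297226, was called in the Low pass library at 260 bp with 6.48 and in 7 of 10 Pass libraries with 6.71 to 19.1 and a median of 14.4 (adjusted p = 0.0501). Its median percentile was 56.1, and the Pass values of the upstream and the promoter site overlapped between 15.2 and 19.1.

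CTCF marked the Cish locus at 4 places. The strongest, chr9:107290617-107291670, lies 4.88 kb upstream of Cish near the start of Mapkapk3. It gave 16.9 and 11.4 in the 2 Low pass libraries, 15.2 in the Fail library at 194 bp, and 15.6 to 49.1 (median 21.3) in 14 of 14 Pass libraries, with a median percentile of 96.4 and an adjusted p of 0.00241 by Fisher's exact test. The site 40.1 kb downstream in an intron of Hemk1, chr9:107335609-107336686, was called in 1 Low pass, 0 Fail and 14 Pass libraries (adjusted p = 1.70e-04). The 2 weaker ones, 1.61 kb and 49.7 kb upstream, appeared in no Low pass or Fail library, against 11 and 8 of 14 Pass libraries (adjusted p = 0.00114 and 0.0152).

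Socs2 (chr10:95385362-95417180, minus strand) had CTCF but no TAL1. Its promoter site, chr10:95417612-95418610, is centred 0.931 kb upstream. It gave fold enrichments of 10.7 and 9.14 in the 2 Low pass libraries, no peak in the 7 Fail libraries, and 9.72 to 20.6 with a median of 15.4 in all 14 Pass libraries (Fisher's exact adjusted p = 5.78e-04). The median percentile was 76.4, so the site ranked above most CTCF peaks of its libraries without a matrix match above the threshold. With no TAL1 peak in 19 libraries, Socs2 was the only one of the 9 genes in which the TAL1 maps hold nothing within 50 kb.

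Socs3 (chr11:117966079-117970047, minus strand), an inhibitor of JAK kinases, had a CTCF site right at its start. That site, chr11:117969495-117970629, is centred 0.015 kb from the start and holds the match printed above. Its fold enrichment was 9.53 and 7.12 in the 2 Low pass libraries and 9.06 to 34 (median 15.5) in the 14 Pass libraries, with no peak in the Fail libraries (Fisher's exact adjusted p = 5.78e-04). TAL1 was called 4.55 kb upstream, at chr11:117973996-117975198, in 0 of 4 Low pass, 0 of 5 Fail and 9 of 10 Pass libraries (adjusted p = 0.00196). Its fold enrichment was 8.16 to 25.5 in the 9 Pass libraries, with a median of 12.0 and a median percentile of 51.8. This adjusted p, the smallest of the TAL1 reference sites, was shared by the upstream Jak2 site and the Bcl2l1 site at 20.3 kb. The gap between these TAL1 and CTCF sites of Socs3 is 3.37 kb.

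Of the survival genes, Pim1 (chr17:29490753-29496112, plus strand) encodes a serine/threonine kinase that STAT5 induces. It had a cluster of 3 TAL1 reference sites 43.3 to 46.8 kb upstream, in introns of the uncharacterised gene AC163629.2. The site at chr17:29446860-29448094, 43.3 kb upstream, gave fold enrichments of 37.5, 30.4, 22 and 19.7 in the 4 Low pass libraries. It gave 43.2 and 11.3 in the Fail libraries at 183 and 295 bp, and 33.1 to 103 with a median of 56.0 in the 10 Pass libraries. With 6 of 9 Low pass or Fail and 10 of 10 Pass libraries the difference did not pass the test (Fisher's exact adjusted p = 0.139), and no other TAL1 reference site at the loci was called in as many Fail libraries. The site 46.8 kb upstream was called in 4 Low pass, 0 Fail and 10 Pass libraries (adjusted p = 0.0290), a call likewise lost in 16 of 24 recomputations. The one 45.3 kb upstream was called in 0 of 9 and 8 of 10 (adjusted p = 0.00564). Repeats cover 52.8% of the site at 43.3 kb and 53.5% of that at 46.8 kb, and these were the only 2 of the 19 that lie mostly in repeats. Past the end of Pim1, sites 8.97 and 11.7 kb from the start had calls from 1 and 2 of 9 Low pass or Fail libraries, against 7 and 9 of 10 Pass libraries (adjusted p = 0.0501 and 0.0203).

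CTCF flanked Pim1 on the other side, with 2 sites 22.6 and 23.9 kb from its start. The outer one, chr17:29514109-29515228, gave 16.0 and 11.4 in the 2 Low pass libraries and 15.6 to 65.7 (median 22) in 14 of 14 Pass libraries, with a median percentile of 97.5 (Fisher's exact adjusted p = 5.78e-04). The inner one, chr17:29512805-29513883, was called in no Low pass or Fail library and in all 14 Pass libraries, with 10.2 to 36.4 and a median of 17.1 (adjusted p = 5.82e-05, the smallest of the CTCF reference sites). Like the Socs2 promoter it holds no matrix match above the threshold of 0.0001. The Pim1 promoter site, chr17:29492086-29493414, lies in an intron of Pim1, more than 1000 bp past the gene start. It counts as a promoter site by a transcript start inside the gene. It was called in 0 of 9 and 10 of 14 libraries with a median fold enrichment of 10.7 in Pass libraries (adjusted p = 0.00407). The CTCF site over the gene start itself, chr17:29490188-29491212, was called in no library of the line and in 3 primary libraries.

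Bcl2l1 (chr2:152780668-152831728, minus strand), the gene of Bcl-xL, held more TAL1 sites than any other of the 9 genes: 14 of the 42 and 6 of the 19 reference sites, 5 of them inside the gene. Of the reference sites 5 are described. Sites 17.3 and 14.1 kb from the start had calls from 3 of 9 Low pass or Fail libraries, against all 10 Pass libraries (Fisher's exact adjusted p = 0.0134 each). The one at 20.3 kb was called in 1 of 9 and 10 of 10 (adjusted p = 0.00196), the one at 5.02 kb in 0 of 9 and 5 of 10 (adjusted p = 0.0663), and the one at 61.8 kb, past the gene, in 2 of 9 and 7 of 10 (adjusted p = 0.139).

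CTCF lay outside the TAL1 cluster of Bcl2l1. The promoter site, chr2:152830291-152832316, was called in the Low pass library at 178 bp with 9.79 and in 13 of 14 Pass libraries with 9.45 to 29.3 and a median of 12.1 (Fisher's exact adjusted p = 5.78e-04). The strongest, chr2:152766112-152768389, lies 64.5 kb from the start past the end of the gene, with 19.6 and 8.38 in the Low pass libraries and 8.38 to 31.6 (median 15.1) in all 14 Pass libraries. A CTCF site 89.3 kb from the start was called in 1 Low pass, 0 Fail and 13 Pass libraries. The 5 TAL1 sites inside the gene thus fall between the CTCF sites at its promoter and past its end.

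**Figure D3:**
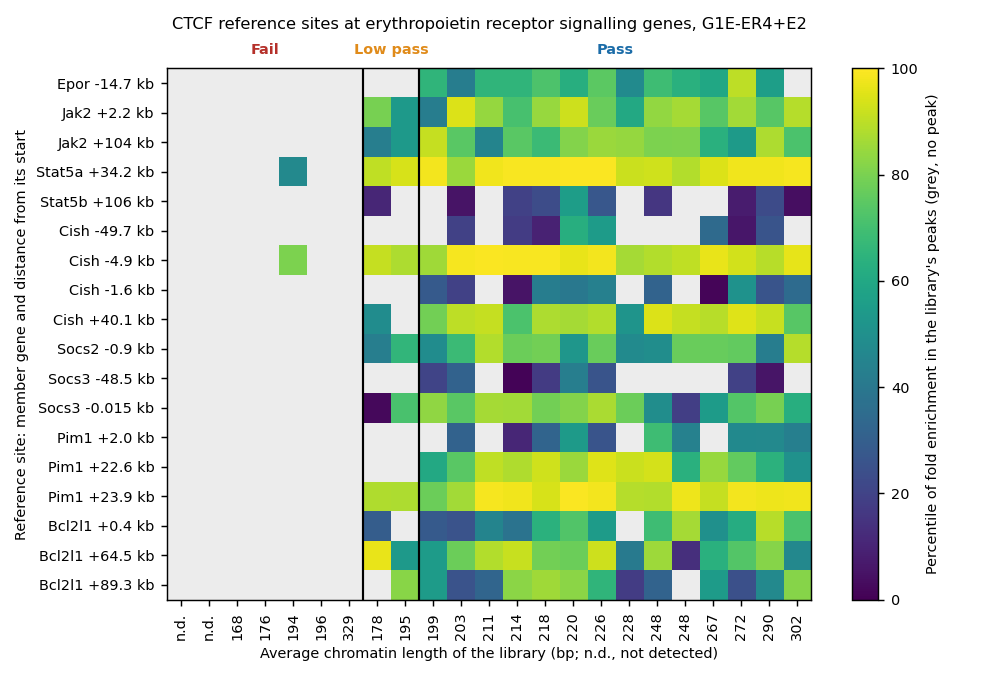
The 18 CTCF reference sites (rows) in the 23 CTCF libraries of G1E-ER4+E2 cells (columns, by assessment and average chromatin length in bp). Colour gives the percentile of fold enrichment among the library's own peaks and grey no peak. Among the 7 Fail libraries only the one at 194 bp is coloured, at Stat5a and Cish.

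The study varied sonication and compared libraries by the chromatin length that resulted, in ranges of under 200 bp, 200 to 250 bp and over 250 bp. Every library at 200 to 250 bp was a Pass library, the class from which the reference sites were taken. A higher recall in this range is thus partly built into the measure. The p-values below describe the libraries and are no independent evidence of an effect of length. The p-values were adjusted by Benjamini-Hochberg over 8 tests. Among these are the comparisons by assessment, whose small p-values make most of the other adjusted p-values smaller. TAL1 recall at the loci averaged 31.6% ± 33.3 under 200 bp (SD, n = 4) and 42.7% ± 36.3 over 250 bp (n = 9), against 91.0% ± 11.8 at 200 to 250 bp (n = 6). Exact permutation tests gave p = 0.0190 for short (adjusted 0.0253) and p = 0.00799 for long chromatin (adjusted 0.0128). CTCF recall averaged 29.4% ± 34.8 under 200 bp (n = 7), against 88.9% ± 14.4 at 200 to 250 bp (n = 9), with an exact permutation p of 0.00122 (adjusted 0.00244). Over 250 bp it averaged 73.3% ± 41.8 (n = 5), which did not differ beyond the spread between libraries (exact permutation p = 0.463, adjusted 0.529). That mean rests on 1 library. The Fail library at 329 bp called 0 of the sites and the other 4 called 83.3% to 100%, and without it the difference was 2.78 points in favour of long chromatin.

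Libraries of nearly the same length differed in recall. For TAL1, libraries at 297 and 298 bp called 0% and 100% of the sites, and those at 273 and 269 bp 0% and 57.9%. These 4 are retrospective libraries, some of which were made with another fixative. The labels do not give the fixative of a library, and its part in these differences was not tested. Within the sonication series, TAL1 recall was 36.5% on average under 200 bp (n = 3), 46.0% over 250 bp (n = 3) and 93.5% between (n = 4), with exact permutation p values of 0.0571 for each comparison with the middle range, the smallest that 3 against 4 libraries allow. For CTCF within that series it was 71.7% under 200 bp (n = 2) and 94.1% over 250 bp (n = 3), against 83.2% between (n = 6), with exact permutation p values of 0.429 (smallest possible 0.0714) and 0.381. These 6 libraries include both of those at 248 bp, of which 1 is of the pilot. Within the retrospective libraries, the 5 CTCF libraries under 200 bp were the 5 Low pass or Fail ones given above and the 3 at 200 to 250 bp the Pass ones, so length and assessment cannot be told apart there. No retrospective CTCF library was over 250 bp, and for TAL1 the middle range there held 2 libraries.

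**Figure D4:**
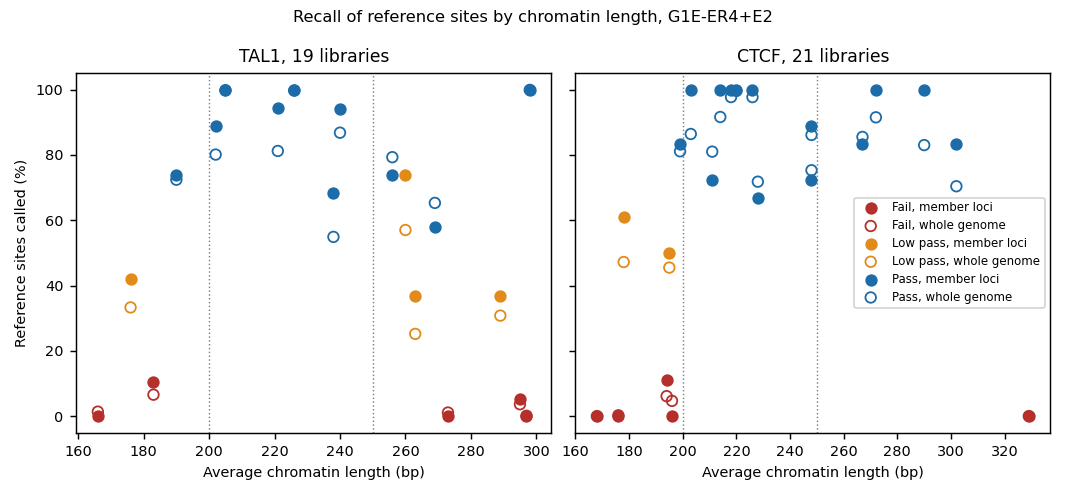
Percent of reference sites called (vertical axis) by average chromatin length in bp (horizontal axis) in G1E-ER4+E2 libraries with a measured length, TAL1 left and CTCF right. Filled symbols are the loci of the 9 genes, open symbols the whole genome, colours the assessment, and dotted lines the limits at 200 and 250 bp. TAL1 libraries near 297 bp lie at both 0% and 100%, and the CTCF library at 329 bp lies at 0%.

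The loci took a larger share of TAL1 than of CTCF peaks. TAL1 Pass libraries of the line had 0.406% ± 0.0491 of their peaks at the loci (SD, n = 10; 0.345% to 0.487%) and CTCF Pass libraries 0.135% ± 0.0161 (n = 14; 0.114% to 0.170%), while the loci cover 0.0392% of the chromosomes. The groups did not overlap, and the difference of 0.271 points had a permutation p of 2.00e-05, the smallest that 100000 resamples allow (adjusted 8.00e-05). The genes were chosen with earlier results of these data known. This p-value thus compares libraries at these loci and does not show that the loci are unusual among genes. With every list reduced to its 2500 peaks of highest −log10 p, an alternative chosen after seeing the data, the shares were 0.456% and 0.237%.

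CTCF was also mapped in primary blood cells, in which the same loci could be compared with the line. The share of CTCF peaks at the loci was 0.135% ± 0.0279 in 11 primary libraries (SD; 0.102% to 0.196%) and 0.135% ± 0.0161 in 14 Pass libraries of the line, with a permutation p of 0.979. Of the 18 reference sites of the line 9 (50%) were called in all 11 primary libraries, against 23.3% of CTCF reference sites of the genome. Those 9 included the promoters of Socs3 and Bcl2l1, both sites of Jak2, and the sites at Stat5a (34.2 kb), Cish (4.88 kb upstream and 40.1 kb), Pim1 (23.9 kb) and Bcl2l1 (64.5 kb). No reference site was called in fewer than 5 primary libraries. Cell source, time in formaldehyde and, for most libraries, the input used in peak calling differ together between primary cells and line, and their parts in any difference cannot be told apart.

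Fisher's exact test, adjusted over all CTCF sites of the genome in at least 2 of these libraries, gave 4 of 42 tested sites at the loci (9.52%) as called more often in primary cells, against 7.53% in the genome. No site was called less often, also not by an unadjusted p under 0.05 (0 sites), against 0.902%. In the same test 7 sites were called more often at an unadjusted p under 0.05. Of the 4 sites 3 lie at Stat5b. The one at chr11:100761030-100762430, at the promoter of Hcrt and 89.0 kb from the Stat5b start, was called in 10 of 11 primary and 0 of 14 line libraries (adjusted p = 5.01e-04). Its fold enrichment was 15.0 and 28.0 in LSK, 36.6 in CMP, 79.3 in GMP, 16.3 in MEP, 9.40 in CFUE, 9.55 in one ERY library and none in the other, 46.7 in CFUMk, and 33.9 and 19.4 in iMk. The 3 erythroid libraries were thus the lowest, and the percentile ran between 10.2 in CFUE and 96.1 in GMP. Hcrt encodes the precursor of the orexin neuropeptides. With every list reduced to its 6000 strongest peaks it was still called in 9 of 11 primary and 0 of 14 line libraries, and it was the only one of the 4 to pass the test there.

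Among the strongest peaks of each list the other 3 sites were rarely called. A site at the promoter of Kcnh4, chr11:100759135-100760536, and one in an intron of Stat5b 13.2 kb from its start, chr11:100837086-100837867, were each called in 7 of 11 primary and 0 of 14 line libraries (Fisher's exact adjusted p = 0.0130). A Pim1 site 40.7 kb from the start, chr17:29531017-29531959, was called in 8 of 11 and 1 of 14 (adjusted p = 0.0317). Among the 6000 strongest peaks of each list these were called in 2, 0 and 0 primary libraries. Without the CMP and GMP libraries, which were Low pass, only the Hcrt promoter site remained past the threshold. The number of sites per primary library was highest in the longest lists and lowest in the shortest, with 47 sites in CFUMk (36481 peaks) and 41 in GMP (34416 peaks), against 11 and 12 in the ERY libraries (6629 and 8284 peaks). Of the 35 sites with no call in the line, 18 came from 1 primary library only, and no genome share was computed for these counts. Of the tested sites 17 of 42 (40.5%) had no call in a Pass library of the line, against 32.6% in the genome.

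**Figure D5:**
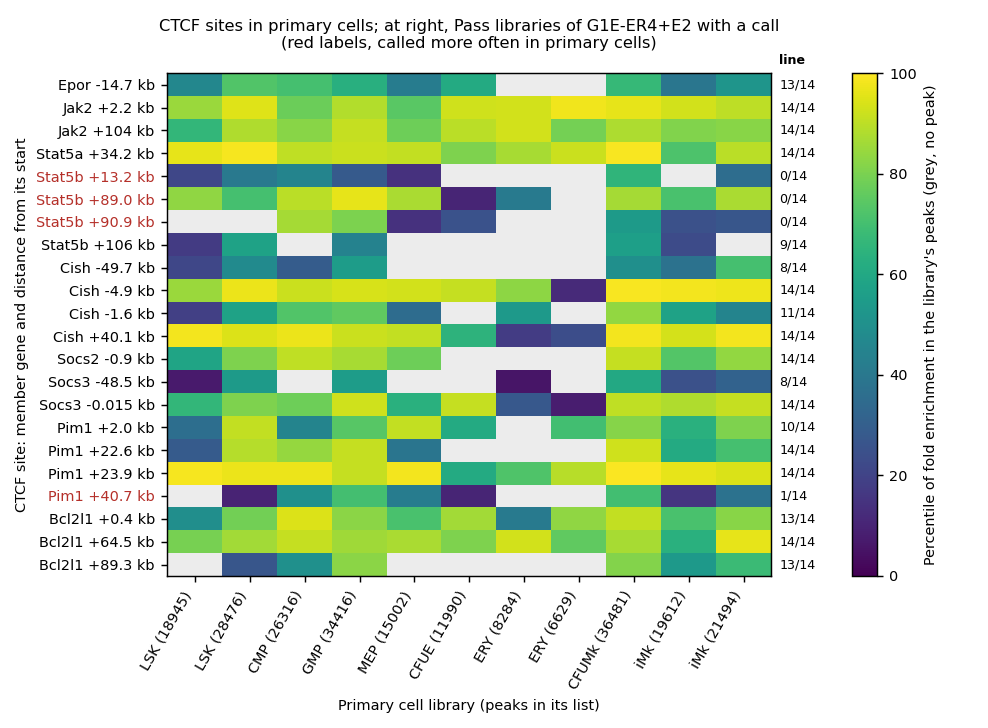
CTCF sites at the loci (rows) in the 11 primary libraries (columns, with the number of peaks in each list). Colour gives the percentile of fold enrichment in the library, grey no peak, and the numbers at right the Pass libraries of G1E-ER4+E2 with a call out of 14. Rows in red are the 4 sites called more often in primary cells, and the Socs2 promoter at -0.9 kb and Pim1 at 22.6 kb are grey in CFUE and both ERY libraries alone.

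In the erythroid populations (CFUE and ERY), 5 of the 18 reference sites (27.8%) were called in 0 of 3 libraries, against 40.4% of CTCF reference sites of the genome. These were the Socs2 promoter, Pim1 at 22.6 kb, Bcl2l1 at 89.3 kb, Cish 49.7 kb upstream and Stat5b at 106 kb. The Socs2 promoter and the Pim1 site at 22.6 kb were called in 0 of 3 erythroid libraries and in all 8 others (11.1% of the 18), against 13% of CTCF reference sites of the genome. They are the 2 CTCF reference sites without a matrix match at 0.0001. By the core consensus with 2 mismatches allowed, the 2 without a match are the Socs2 promoter and the Stat5b site at 106 kb. At the Socs2 promoter the fold enrichment was 11.1 and 33.5 in LSK, 37.9 in CMP, 54.9 in GMP, 14.2 in MEP, 53.0 in CFUMk, and 31.6 and 19.9 in iMk. At the Pim1 site it was 8.16 and 40.3 in LSK, 31.8 in CMP, 64.0 in GMP, 9.70 in MEP, 54.9 in CFUMk, and 24.9 and 16.8 in iMk. The erythroid lists are the shortest of the primary cells, at 6629, 8284 and 11990 peaks, against 15002 to 36481 in the others. Among the 6000 strongest peaks of each list the Socs2 promoter was called in 0 of 3 erythroid, 7 of 8 other primary and 8 of 14 line libraries, and the Pim1 site in 0, 4 and 13.

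Between erythroid (CFUE and ERY) and megakaryocytic cells (CFUMk and iMk), with 3 libraries each, no exact test per site can fall below 0.10, so calls are given without one. Of 30 sites at the loci called in at least 2 of the 6 libraries, 5 (16.7%) were called in 0 of 3 erythroid and 3 of 3 megakaryocytic libraries, against 34.5% in the genome. None was called in 3 and 0, against 0.0611%. All 6 libraries called 9 of the 30, against 3906 of 22903 in the genome. Among the 6000 strongest peaks of each list the count in 0 and 3 was 1 of 12 (8.33%), the Socs2 promoter, against 7.37% in the genome.

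Motif content could be set against all reference sites. A TAL1 matrix match passed a p of 0.0001 in 11 of the 19 TAL1 reference sites (57.9%), against 64.4% of TAL1 reference sites in the genome and 21.8% of windows 10 kb away. The word CTG followed after 7 to 9 bases by GATA, on either strand, occurred in 12 (63.2%), against 65.3% of TAL1 reference sites in the genome and 29.6% of windows 10 kb away. A CTCF matrix match passed in 16 of 18 CTCF reference sites (88.9%), against 95.7% of CTCF reference sites in the genome and 25.3% of windows 10 kb away. The core consensus of CTCF, allowing 2 mismatches on either strand, occurred in 16 (88.9%), against 95.9% and 44.4%. At a p of 1e-05 a match was present in 5 TAL1 sites (26.3%), against 29.5% in the genome and 3.68% of windows 10 kb away, and in 10 CTCF sites (55.6%), against 81.3% and 7.66%. A match describes letters in a window and does not show that the factor bound them.

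Other genes of the pathway, taken from a list of adaptors, phosphatases, kinases, inhibitors and targets, were counted the same way. A TAL1 reference site lay within 50 kb of 16 of these 20 genes (80.0%), all but Sh2b3, Gab1, Sos1 and Osm, against 8 of the 9 genes described here (88.9%) and 31.8% of protein-coding genes. Ccnd3, a cyclin with a role in the last divisions of erythroid cells, had 9 TAL1 reference sites, more than any of the 9 genes. A CTCF reference site was present at 19 of the 20 (95.0%), all but Irs2, against 9 of 9 and 68.2%.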

How the data were processed

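The authors mapped reads to mm10 (GRCm38) with Bowtie, removed mitochondrial, unplaced and unmapped reads, and called peaks in each library with MACS, mostly against a composite input for the cell line. The submitters' processing notes name bcl2fastq 1.8.4 and Bowtie 1.0.0. The p cutoff is not given in the sources used here. The deposited lists give each peak a fold enrichment, a ratio over local background, and the −log10 of its p-value. Both depend on depth, which the lists do not give. Their FDR column, the POL2 libraries and the input libraries were not analysed here.

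The 9 genes and the list of 20 further pathway genes were chosen with earlier results of these data known. Overlapping peaks (1 bp or more) of all libraries of a factor were joined into sites and placed with the GENCODE M21 annotation. Values are given in full for reference sites at promoters of the 9 genes and for the site of each gene and factor with the highest median percentile, and sites of a single library as counts. The TAL1 site of Bcl2l1 that this rule names is not reported here. The 2000 strongest peaks outside the loci, of an LSK library for CTCF and of the Pass library at 298 bp for TAL1, gave matrices of 19 bp after 15 rounds on their central 200 bp, which were scanned on both strands of whole sites. Exact permutation tests (two-sided) compared groups, with 100000 resamples in place of all permutations where both had 10 or more libraries, and two-sided Fisher's exact tests compared sites with Benjamini-Hochberg adjustment at 0.05. The 8 permutation tests were adjusted together. Python 3.11.15, numpy 2.4.6, pandas 2.3.3, scipy 1.17.1 and pysam 0.24.0 were used. The Fisher's exact tests were tried on simulated calls in which few sites changed. They recovered 92.5% to 95.5% of sites whose call rate differed by 90 points. At a difference of 50 points they recovered 0%. A site that did not pass is thus not shown to be called equally often. Alternatives were other flanks (10 and 100 kb), a −log10 p of at least 10, the middle 400 bp of peaks, a stricter reference, subsets of libraries, other motif thresholds, and lists of equal length. Precision is set by the number of libraries.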

Additional observations from a re-analysis of the deposited data

Results flagged for a closer look

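In each group of 4 to 10 libraries the highest or lowest value was compared with its neighbour by Dixon's criterion. This was done for 14 groups, and chance alone passes about 1 in 20 of them. In 5 cases 1 library stood apart. Among the 4 Low pass TAL1 libraries, recall at the loci was 73.7% in the library at 260 bp, and 42.1% in the next. Among the 6 TAL1 libraries of 200 to 250 bp it was lowest, at 68.4%, in the Pass library at 238 bp, and 88.9% in the next. The Fail CTCF library at 194 bp had a recall of 11.1%, against 0% in each of the other 6 Fail libraries. The same library had 0.0516% of its peaks at the loci, against 0% in the others. With 6 values tied at 0 any other value passes the criterion, so these 2 cases are 1 library and carry no further weight. Among the 5 CTCF libraries over 250 bp recall was 0% in the Fail library at 329 bp, and 83.3% in the next.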

How the results depend on the processing

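Each comparison was recomputed with 1 choice changed at a time, and none changed direction after passing its test. Some recall comparisons lost their call under a stricter reference or in subsets of libraries. With a reference called in every other Pass library, TAL1 recall under 200 bp differed by -48.3 points (exact permutation p = 0.0667). Within the sonication series the difference was -25.3 for CTCF Low pass or Fail, a comparison described above without its p-value. It was -11.5 for CTCF under 200 bp, and -57.0 and -47.4 for TAL1 under 200 and over 250 bp. With both CTCF libraries at 248 bp also left out, an alternative chosen after seeing the data, the first 2 were -27.1 and -12.5. Among the retrospective libraries, a subset chosen after seeing the data, TAL1 recall differed by -73.7 under 200 bp and -45.6 over 250 bp, where 2 libraries make up the middle range. In each of these subsets the smallest possible exact permutation p was between 0.0571 and 0.667, so none could pass. The CTCF difference over 250 bp, which passed no test, was 2.78 without the library at 329 bp and 10.9 within the sonication series.

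Counts of called sites moved with what was counted. With flanks of 10 kb, 7 TAL1 and 8 CTCF sites were lower in Low pass or Fail libraries and 1 CTCF site higher in primary cells. With flanks of 100 kb, 37 CTCF sites were lower in Low pass or Fail libraries and 1 was lower in primary cells. The count of sites higher in primary cells was 1, in place of 4, at a −log10 p of at least 10, with Pass primary libraries only, and among the 6000 strongest peaks of each list, an alternative chosen after seeing the data. The 11 TAL1 sites became 7 without the library labelled for CTCF, and ranged between 7 and 14 when each library was left out in turn. At the stricter motif threshold the matches were 5 for TAL1 and 10 for CTCF. The count of CTCF sites in 0 erythroid and 3 megakaryocytic libraries was 1 among the 6000 strongest peaks. All other recomputed summaries, 284 with a library left out and 79 with another setting, stayed on their side of the threshold or within 1.5 times the count. Of the recomputed calls of single named sites, 50 with a library left out and 18 with another setting were lost, 13 and 3 were gained, and 812 and 187 stayed as they were.

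No paired analysis was run. Each library has its own number, which does not show which libraries share a batch of cells. The study made its sonication series from batches of differing cell number, and these were pooled here in all comparisons. Read depth is not in the lists, so a missing peak cannot be told from a peak below the cutoff at that depth. Length, assessment, series and date of preparation overlap, the assessment was made from the signal, and only LSK, ERY and iMk have more than 1 library of a sorted population.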
